A study of Mus musculus with 9 samples.

Results

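Oocytes of mice exposed to a chronic unpredictable mild stress model (CUMS, a series of changing mild stressors) were compared with oocytes of control mice. The comparison used the 3 libraries labelled stress and the 3 labelled control, 6 of the 9 libraries of the series, and covered 13890 of the 24736 genes in the tables, those with enough counts to test. All mice were ICR females, an outbred stock, labelled 4 to 5 weeks old. Control mice received no stressor. Stressed mice received stressors daily, among them tail pinch for 10 min, a swim in water of 13 ± 1 °C, 24 h without water or food, 24 h of wet bedding or of continuous light, and restraint for 60 min. A duration of 6 weeks is given in the labels of a further group, which was stressed like these mice and then given the herbal recipe KYZY. All mice, controls included, were superovulated with 7.5 IU of PMSG and 7.5 IU of hCG. Metaphase II oocytes were taken 16 h after hCG and stripped of cumulus cells with hyaluronidase, and 15 oocytes of 1 mouse made 1 library. The 3 KYZY libraries entered the count filter, the scaling and the shared estimate of the spread, but not the contrast. Their sequencing is described differently in the labels. With the 6 libraries alone, 12921 genes had enough counts to test.

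An oocyte arrested at the second meiotic metaphase transcribes next to nothing. Its mRNA was stored during growth in the follicle and is translated or degraded on a schedule during maturation, so that a level reflects both storage and decay. The mouse oocyte depends on pyruvate supplied by its cumulus cells, which its mitochondria oxidise through the pyruvate dehydrogenase complex and the tricarboxylic acid cycle. Because amounts are relative to the library total, less RNA per oocyte and a lower share of a transcript cannot be told apart.

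No gene passed the test across all genes. The edgeR quasi-likelihood test called 0 of 13890 genes at an adjusted p of 0.05 (0%), and its smallest adjusted p was 0.999928. Without adjustment, 373 genes (2.69%) had a p under 0.05, of which 153 (1.1%) were higher and 220 (1.58%) lower in stress, where 694.5 would have a p under 0.05 if p values were uniform. In 1095 genes (7.88%) the 3 stress libraries all lay above or all lay below the 3 control libraries. Of these, 487 (3.51%) were higher and 608 (4.38%) lower. If the group labels were arbitrary, a share of 0.1 of genes would separate on average, ties aside. The observed 7.88% was not above that share. DESeq2, run on the same counts, called 22 of 13808 genes (0.159%), 17 lower and 5 higher in stress. Of those 22 genes, 13 were detected in all 6 libraries. Another 5, all lower (Adcyap1, C1s1, Rhox8, Flrt2 and Nfam1), were detected in control 3 alone of the 6. These 5 were also detected in KYZY libraries, such as Nfam1 at 2.40, 0.866 and 1.18 CPM. They passed the count filter only with the KYZY libraries included. The voom test of limma, with a weight per library, called 2 genes (0.0144%), Plekhb1 and Mmp24.

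Pdha1 and Wfs1, a gene of energy metabolism and one of the endoplasmic reticulum, were among the 22 genes DESeq2 called. Pdha1 encodes the alpha subunit of the first enzyme of the pyruvate dehydrogenase complex, which turns pyruvate into acetyl-CoA. Wfs1 encodes wolframin, a membrane protein of the endoplasmic reticulum that takes part in its calcium balance and stress response. The 250 bases before their annotated starts, from RefSeq on GRCm38.p6, are shown because both genes were set apart in every library. Capitals mark CCAAT and CCACG, on either strand, the letters with which the endoplasmic reticulum stress element begins and ends at a fixed spacing. Both windows are given 5′ to 3′ on the minus strand, at chrX:160138431-160138680 for Pdha1 and chr5:36988983-36989232 for Wfs1.
Pdha1: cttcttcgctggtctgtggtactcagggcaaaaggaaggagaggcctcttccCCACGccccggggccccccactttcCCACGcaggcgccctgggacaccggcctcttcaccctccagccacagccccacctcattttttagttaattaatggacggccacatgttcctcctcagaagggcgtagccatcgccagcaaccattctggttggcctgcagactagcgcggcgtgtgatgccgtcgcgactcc
Wfs1: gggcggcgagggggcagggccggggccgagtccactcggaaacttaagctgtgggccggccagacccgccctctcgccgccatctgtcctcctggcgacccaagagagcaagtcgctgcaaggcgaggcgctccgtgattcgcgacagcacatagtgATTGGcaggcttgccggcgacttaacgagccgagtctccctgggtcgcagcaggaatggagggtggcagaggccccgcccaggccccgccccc
Neither window held the whole element, which 37 of 32851 promoter windows of that length (0.113%) held. The Wfs1 window held CCAAT once, as ATTGG, and 33.85% of windows held those letters. The Pdha1 window held CCACG in 2 places, and 28.343% of windows held it.

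Pdha1 (chrX:160122219-160138430) stood at 98.2, 79.4 and 67.9 CPM in control 1, 2 and 3 and at 44.3, 34.6 and 45.5 CPM in stress 1, 2 and 3, where CPM is a gene’s count relative to the total of its library after scaling. Every stress library lay below every control library. The mean was 81.8 ± 15.3 CPM in control and 41.5 ± 5.99 in stress (SD, n = 3 each), a log2 fold change of -0.98 with a 95% interval of -1.44 to -0.53. The unadjusted p was 0.000677 in edgeR, which did not survive adjustment, and the adjusted p was 0.0241 in DESeq2. The annotation places Map3k15 and Gm39547 over the same locus, and the counting used no strand.

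Wfs1 (chr5:36966104-36988982) was higher in stress, from 81.4, 60.9 and 54.4 CPM in control to 117, 127 and 118 CPM in stress. The 3 stress values were close together and all above the highest control. Its mean was 65.6 ± 14.1 CPM in control and 121 ± 5.65 in stress (SD, n = 3 each), a log2 fold change of 0.88 (95% interval 0.44 to 1.33), with an unadjusted edgeR p of 0.00128 and a DESeq2 adjusted p of 0.0241. In the 3 KYZY libraries, set beside these without a test, Pdha1 stood at 85.1, 95.6 and 90.4 CPM and Wfs1 at 77.6, 69.5 and 66.5 CPM. Not all leading genes stood within the control range there. Stra6l, at 30.2, 36.0 and 40.6 CPM, and Caskin2, at 19.4, 15.3 and 21.3 CPM, lay below every control library. Akap12, at 49.7, 60.3 and 45.8 CPM, and Abl2, at 40.3, 52.0 and 41.8 CPM, lay above every control library. So did Ica1l, at 11.2, 17.1 and 9.35 CPM. These are examples, and such genes were not counted.

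Among other genes of pyruvate use and the tricarboxylic acid cycle, Ogdh, a subunit of the 2-oxoglutarate dehydrogenase complex, stood at 53.9, 55.0 and 37.5 CPM in control and 80.9, 77.8 and 78.1 CPM in stress, without overlap (log2 fold change 0.69, 95% interval 0.20 to 1.19). Pcx, the pyruvate carboxylase that makes oxaloacetate, stood at 6.28, 14.8 and 7.46 CPM in control and 6.13, 5.26 and 5.35 CPM in stress, where the groups were separated by a narrow gap. The most abundant member, the lactate dehydrogenase subunit Ldhb, overlapped, at 1290 to 2604 CPM in control and 2449 to 2491 in stress. Of the 38 members tested, 18 were higher and 20 lower, and the median log2 fold change was -0.06, beside -0.03 over all genes. Pdha1, Ogdh and Pcx were the members without overlap, 7.89% of the list, a share near the 7.88% over all genes. The list as a whole stood near the median of all genes.

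**Figure D1:**
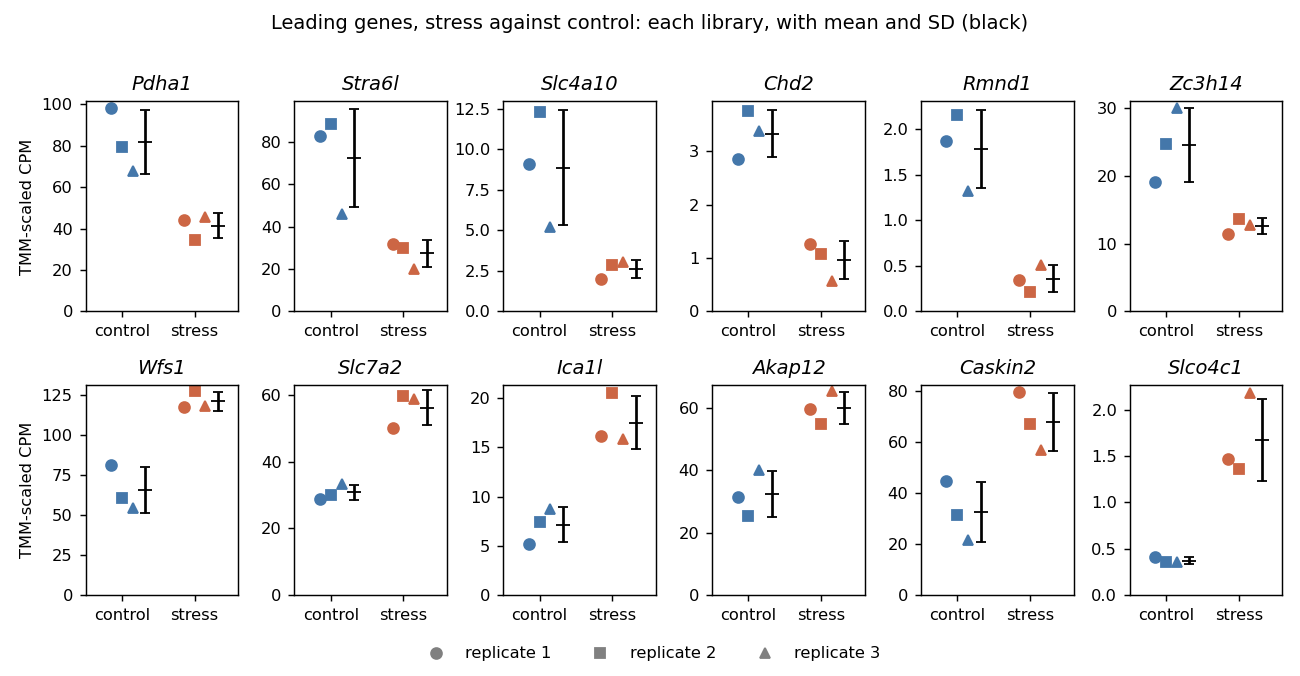
Level of 12 leading genes in each library, in TMM-scaled CPM on linear axes that start at 0. Points are libraries, with the marker giving the replicate number, and black bars are the mean and SD of 3. The upper row holds genes lower in stress, such as Pdha1 (81.8 against 41.5 CPM), and the lower row genes higher in stress, such as Wfs1 (65.6 against 121 CPM).

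Among genes of small p, 4 transport genes were named, Stra6l and Slc4a10 lower and Slc7a2 and Slco4c1 higher in stress. Stra6l, a membrane receptor for the retinol-binding protein, stood at 82.5, 88.3 and 45.9 CPM in control and at 31.95, 30.1 and 20.2 in stress, a log2 fold change of -1.40 (SE 0.284; 95% interval -2.03 to -0.77). Control 3 was the lowest control but still above every stress library. Slc4a10, a sodium-driven bicarbonate transporter, stood at 9.09, 12.3 and 5.196 CPM in control and 2.01, 2.86 and 3.04 in stress (log2 fold change -1.75, SE 0.382). Slc7a2, a carrier of arginine and lysine, stood at 28.9, 30.1 and 33.4 CPM in control and at 50.2, 59.6 and 58.7 in stress (log2 fold change 0.87, SE 0.204). The organic anion carrier Slco4c1 was close to the detection limit in control, at 0.413, 0.353 and 0.352 CPM, and stood at 1.47, 1.36 and 2.17 CPM in stress. Of 45 ion and solute transport genes tested, 22 were higher and 23 lower, and the median was -0.02 on the log2 scale. Without overlap, 3 were higher and 4 lower, 15.6% of the list beside 7.88% over all genes. The gene lists of this report were chosen with earlier results of these data known. This one holds Stra6l, Slc4a10 and Slco4c1, so its share is not independent of those genes.

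Other genes of small p on the lower side had varied roles. Zc3h14, a poly(A)-binding zinc finger protein, stood at 19.1, 24.7 and 30.0 CPM in control and 11.4, 13.6 and 12.8 CPM in stress (log2 fold change -0.96, SE 0.242). The chromatin remodeller Chd2 stood at 2.86, 3.74 and 3.39 CPM in control and 1.26, 1.07 and 0.574 in stress (log2 fold change -1.78, SE 0.358). Its locus overlaps Chaserr, a noncoding RNA, and reads of both cannot be separated. Other leading genes had such shared loci. Of the 15 separated genes of smallest p on the lower side, 11 had a locus shared with another annotated gene. Of the 15 on the higher side, 5 did. The share over all genes was not worked out, so neither count can be called high or low. Rmnd1, which is needed for translation in mitochondria, stood at 1.87, 2.15 and 1.32 CPM in control and 0.343, 0.218 and 0.512 in stress. Cast, the inhibitor of calpain proteases, had a log2 fold change of -3.18 (SE 0.768) from 2.22, 5.54 and 2.19 CPM to 0.319, 0.480 and 0.295. Plekhb1, a pleckstrin homology domain protein with the smallest unadjusted p (0.000515, edgeR), stood at 8.23, 11.5 and 6.12 CPM in control and 1.56, 1.79 and 3.12 in stress. In each of these genes the groups did not overlap. Birc2, an inhibitor of apoptosis, and Car9, a carbonic anhydrase, were lower too, with log2 fold changes of -1.28 and -0.67.

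The genes of small p on the higher side had varied roles too. Akap12, which anchors protein kinase A, stood at 31.5, 25.4 and 40.1 CPM in control and 59.6, 55.0 and 65.4 in stress (log2 fold change 0.89, SE 0.215). The scaffold gene Caskin2 stood at 44.9, 31.6 and 21.5 CPM in control and 79.5, 67.2 and 57.1 in stress (log2 fold change 1.06, SE 0.276). Ica1l, a relative of the islet autoantigen gene Ica1, stood at 5.21, 7.43 and 8.75 CPM in control and 16.2, 20.6 and 15.8 in stress (log2 fold change 1.30, SE 0.285). All 3 genes were higher in every stress library than in any control library. The phosphoinositide phosphatase Mtmr6 (log2 fold change 1.00), the zinc finger transcription factor Insm1 (1.27) and the tyrosine kinase Abl2 (0.67) were also separated. Abl2 varied little among controls, at 32.4, 33.4 and 32.9 CPM, and stood at 60.9, 51.6 and 45.0 CPM in stress.

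These genes were chosen for groups that do not overlap, which fixes their direction when a library is left out. When control 3 and stress 3 were left out, a setting chosen after seeing the data, the log2 fold change of March4 went from 1.95 to 3.02. March4, a ubiquitin ligase gene, was among the 2 of 15 separated genes of smallest p on the higher side called there. Of the 15 on the lower side, 0 were called.

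Among the 1294 genes of at least 100 CPM, a smaller share was separated than over all genes, mostly upward. In 46 of them (3.55%) the groups did not overlap, beside 7.88% over all genes. Of these, 41 were higher (3.17%, beside 3.51% over all genes) and 5 lower (0.386%, beside 4.38%). The higher share was thus near that over all genes, and the lower share was smaller. Of the 1294 genes, 75.9% had a log2 fold change above 0. With DESeq2-type scaling (RLE) the split was 31 higher and 3 lower. These genes as a class stood at a median log2 fold change of 0.12, and at -0.07 without control 3 and stress 3. The most abundant of the 5 lower genes was Parp12, an antiviral mono-ADP-ribosyltransferase, at 4860, 3935 and 4034 CPM in control and 3355, 2770 and 1148 in stress. Stress 3 was the lowest, and without it the log2 fold change went from -0.82 to -0.48. Noct, a circadian phosphatase, stood at 635, 457 and 561 CPM in control and 789, 798 and 1079 in stress (log2 fold change 0.69, 95% interval 0.02 to 1.36). Usp46, a deubiquitinase gene whose locus overlaps the antisense genes Usp46os1 and Usp46os2, stood at 120.8, 106.7 and 506.6 CPM in control and 531, 656 and 621 in stress. Control 3 alone lay near the stress libraries, and without it the log2 fold change went from 1.30 to 2.41.

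**Figure D2:**
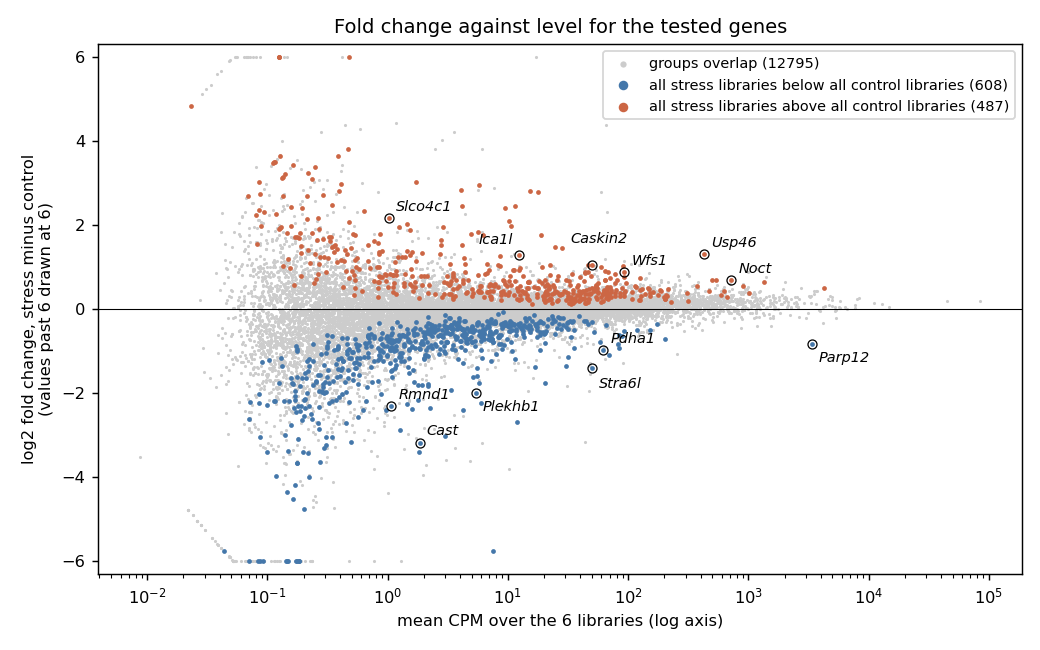
Log2 fold change, stress minus control, against mean CPM over the 6 libraries (log axis) for the 13890 genes tested, with the 487 genes higher and 608 lower without overlap coloured. Circled genes are named; below 1 CPM the scatter is widest, and among genes of at least 100 CPM 41 separated genes lie above 0 and 5 below.

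A few weakly expressed genes were at 0 in every library of 1 group and above the floor of 12 counts in every library of the other. Cldn34d, Zfp965, E2f3 and Arl5c were at 0 in stress. E2f3, a transcription factor of the cell cycle, had 16, 36 and 33 counts in control, at least 2.37-fold lower in stress. Psg23 and Gm12408 were at 0 in control. Psg23, a pregnancy-specific glycoprotein gene, stood at 1.31, 0.794 and 0.776 CPM in stress, at least 6.14-fold higher. If a read pair is worth about 4 counts, as was read from the values, most of these values rest on few read pairs.

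The precision of the comparison depended on level. The median SE of a log2 fold change was 1.37 below 1 CPM, 0.381 from 1 to 10 CPM, 0.249 from 10 to 100 CPM and 0.290 at 100 CPM or more. Of the 3835 genes from 10 to 100 CPM, the 95% interval lay within a 2-fold change either way in 3074 (80.2%). Of the 1294 more abundant genes it did so in 972 (75.1%), and 4 of them had a log2 fold change beyond 1. Over all genes that held for 5771 (41.5%).

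Oocyte markers were abundant in all 6 libraries and overlapped. Gdf9, a growth factor secreted by the oocyte, stood at 15710, 10459 and 11446 CPM in control and 12816, 12292 and 15491 in stress. Its log2 fold change of 0.11 had a 95% interval of -0.62 to 0.84. Of the 33 oocyte identity genes tested, 0 were without overlap in either direction, beside 7.88% over all genes. Oosp2, a secreted oocyte protein, had a log2 fold change of -1.29 with overlapping groups, at 164, 153 and 72.0 CPM in control and 44.5, 39.6 and 74.6 in stress. Ccnb1, the cyclin B1 that holds metaphase arrest, overlapped at 3527 to 5191 CPM in control and 3683 to 6398 in stress. Of 60 genes of metaphase arrest and the spindle, 45 were higher and 15 lower, with a median of 0.09 that went to -0.11 without stress 3. The spindle kinase gene Aurkc stood at 76.4, 65.6 and 96.2 CPM in control and at 208, 219 and 67.9 in stress, where stress 3 lay within the control range. Of 32 maternal-effect genes, which the embryo needs from the egg, 22 were higher and 10 lower, with a median of 0.07.

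Genes that respond to glucocorticoids, the hormones of the stress axis, had a median near that of all genes. Fkbp5, a chaperone of the glucocorticoid receptor and one of its known targets, stood at 711, 467 and 611 CPM in control and 717, 742 and 740 in stress. The groups were separated by a narrow gap, and the log2 fold change was 0.30 (95% interval -0.29 to 0.88), and 0.14 without control 2. Nr3c1, the receptor itself, overlapped, at 5.65, 6.98 and 5.38 CPM in control and 7.80, 7.06 and 4.19 in stress. Of 25 list members tested, 13 were higher and 12 lower, with a median of 0.02 that went to 0.43 without control 3. Of 40 genes of endoplasmic reticulum stress, 22 were higher and 18 lower, with a median of 0.07, which went to 0.17 without control 3 and to -0.06 without stress 3. Wfs1 was higher and Eif2ak3 and Derl1 were lower without overlap, 7.5% of the list, a share near the 7.88% over all genes (Derl1 was named after its values were seen). Eif2ak3, the PERK kinase, stood at 2.84, 4.02 and 5.17 CPM in control and 2.32, 1.66 and 1.83 in stress.

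Lists of small, widely expressed proteins stood lower in stress when all libraries were used. Of 72 nuclear-encoded subunits of oxidative phosphorylation, 64 were lower and 8 higher, and the median was -0.40. Without overlap, 8 were lower and 0 higher, 11.1% of the list beside 7.88% over all genes. Without control 3 the median was 0.07, and among members of at least 10 CPM it was -0.01. The subunit Cox7b stood at 1.88, 2.86 and 3.55 CPM in control and 0.527, 1.25 and 0.574 in stress. Of 80 cytosolic ribosomal proteins, 74 were lower, with a median of -0.65, which became 0.46 without control 3. Of 44 antioxidant genes, 31 were lower (median -0.35, and -0.07 without control 3), and of 37 proteasome genes 27 were lower (median -0.19, and -0.01 without control 3). The mitochondrial ribosome list had 61 of 87 members lower, with a median of -0.16. Without control 3 the median was -0.10, with 53 of 87 lower, and without control 3 and stress 3 it was 0.02. Mitochondrially encoded genes numbered 0 in the tables and were not analysed here.

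**Figure D3:**
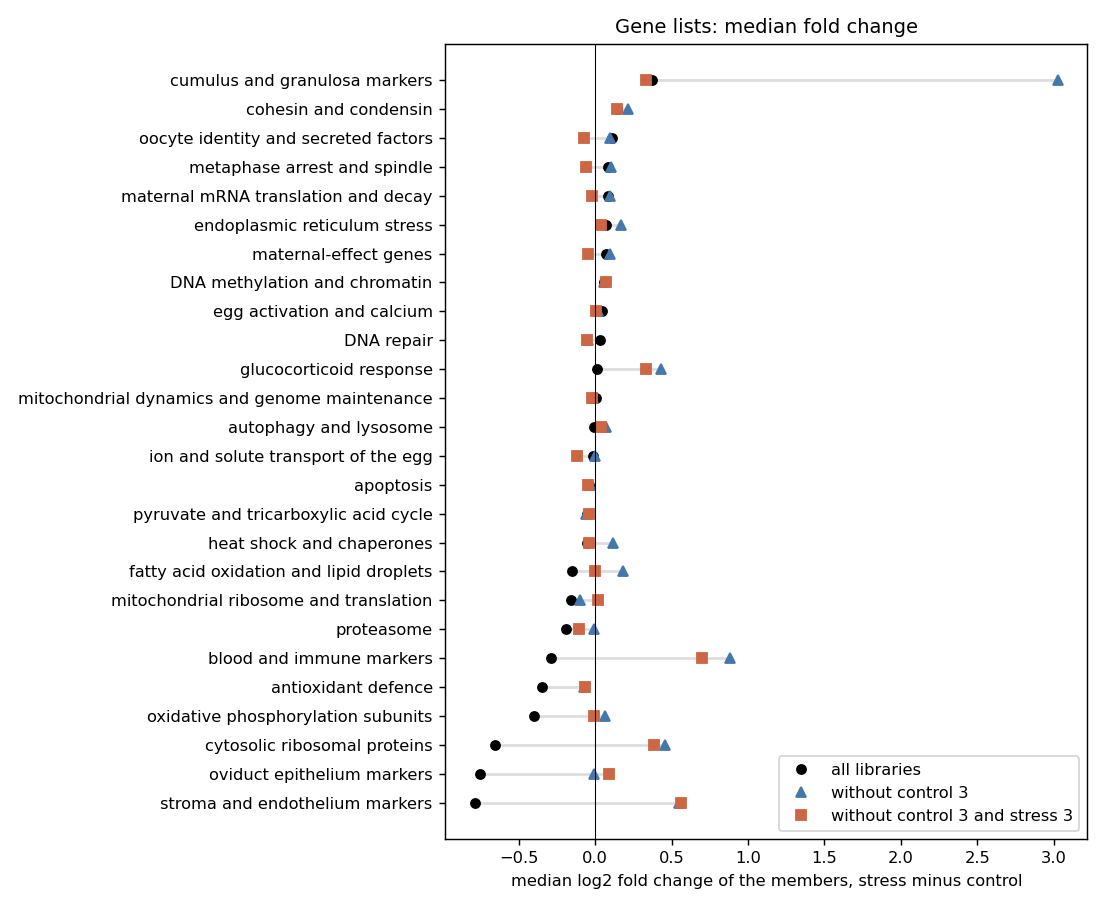
Median log2 fold change, stress minus control, of the tested members of each gene list with all libraries (circles), without control 3 (triangles) and without control 3 and stress 3 (squares). Cytosolic ribosomal proteins go from -0.65 to 0.46 without control 3 and oxidative phosphorylation subunits from -0.40 to 0.07.

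**Figure D4:**
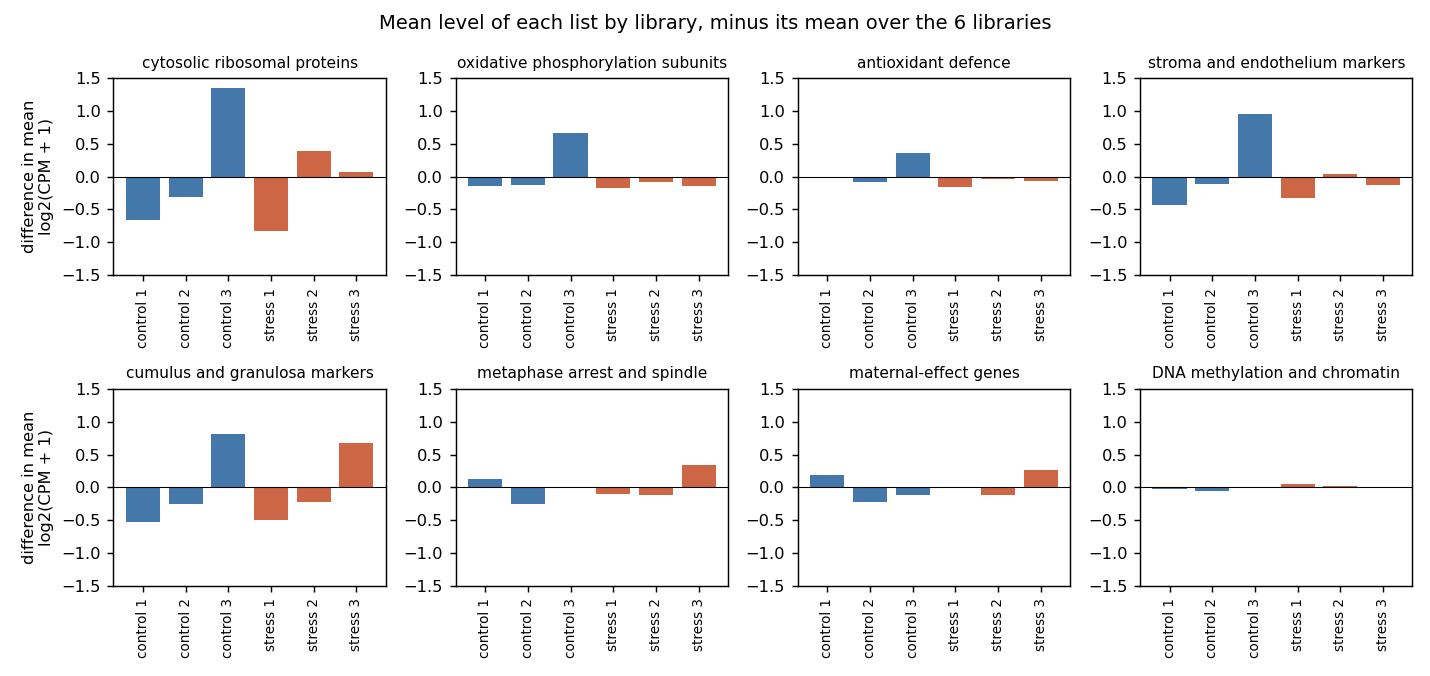
Mean log2(CPM + 1) of the tested members of 8 lists in each library, minus the mean over the 6 libraries, for control (left 3 bars) and stress (right 3 bars). Control 3 stands above the other 5 libraries for ribosomal, oxidative phosphorylation, antioxidant and stroma lists, and control 3 and stress 3 for cumulus markers.

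Control 3 stood apart in transcripts of other cells. Its mean log2(CPM + 1) over cumulus and granulosa markers was 2.37 and that of stress 3 was 2.23, where the other 4 libraries lay between 1.02 and 1.31. Of 37 cumulus markers, 2 were at 0 in all 6 libraries. The summed marker level was 641 to 925 CPM in control and 723 to 1469 in stress, mostly from Serpine2 and Sdc1, which were present in every library. Cyp11a1, the first enzyme of steroid synthesis, stood at 0.480, 8.76 and 228 CPM in control and 1.12, 10.6 and 14.7 in stress. The median of the 30 cumulus markers tested was 0.37, and it went to 3.03 without control 3 and to -2.56 without stress 3. For 22 stroma and endothelium markers, 17 lower, the median was -0.79, and 0.55 without control 3, with sums of 138 to 246 CPM in control and 125 to 178 in stress. For 15 oviduct markers it was -0.76, with 14 lower, and -0.00 without control 3, with 8 lower and 7 higher, and their sums were 415 to 650 CPM in control and 485 to 539 in stress. For 16 blood and immune markers it was -0.29, and 0.88 without control 3, with sums of 116 to 122 CPM in control and 98.1 to 128 in stress, and 8 of the 31 listed were at 0 in all 6 libraries. Whether the RNA of other cells moved the lists of ribosomal and mitochondrial genes was not tested.

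Of 26 lists, the mean level did not overlap between the groups in 3. The mean log2(CPM + 1) over chromatin and DNA methylation genes was 4.29 ± 0.0209 in control and 4.35 ± 0.0253 in stress (SD, n = 3 each; exact 2-sided permutation p = 0.1). That over apoptosis genes was 2.84 ± 0.0776 in control and 2.74 ± 0.0378 in stress (SD, n = 3 each; exact 2-sided permutation p = 0.1). That over egg activation and calcium genes was 4.10 ± 0.0411 and 4.01 ± 0.0434 (SD, n = 3 each; exact 2-sided permutation p = 0.1). With 3 libraries against 3 the smallest p this test can give is 0.1, and every list without overlap reaches it. Among 26 lists, some can separate in this way without any difference between the groups. In the apoptosis list, 3 of 35 members were lower without overlap, 8.57%, a share near the 7.88% over all genes. They were Birc2, Bax, which permeabilises the mitochondrial membrane, and Bid, which activates it. Bid was near the detection limit, at 0.463, 0.401 and 0.339 CPM in control and 0.0491, 0 and 0.0621 in stress. In the egg activation list 2 members were higher and 3 lower without overlap, 17.9% of 28 beside 7.88% over all genes. That list was chosen with earlier results of these data known, and it holds Mettl7a1. How far that gene moved the list mean and this share was not tested. Itpr3, a calcium release channel, was higher at 1.22, 1.90 and 1.08 CPM in control against 2.22, 2.77 and 2.22 in stress. Atp2b4, a pump that exports calcium, was lower at 3.95, 4.29 and 3.36 CPM against 2.37, 2.31 and 2.03. Mettl7a1, a methyltransferase-like gene with near-identical neighbours between which reads may be split, was lower at 18.4, 12.0 and 30.8 CPM against 2.53, 2.62 and 4.39. It was the 1 gene called when replicate numbers were used as pairs (1 of 12921 genes, 0.00774%; edgeR adjusted p = 0.0422).

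Other lists held scattered genes whose groups did not overlap. DNA repair genes had 4 members higher and 4 lower without overlap of 54, 14.8% beside 7.88% over all genes, among them the mismatch repair gene Msh6 at 123, 147 and 133 CPM in control and 150, 169 and 184 in stress. Autophagy genes had 3 of 42 higher without overlap, 7.14%, a share near the 7.88% over all genes, including Pik3c3, the kinase that starts autophagosome formation, and the cargo receptor Optn. Optn stood at 4.80, 7.14 and 10.98 CPM in control and 12.3, 11.3 and 16.0 in stress. Of 41 fatty acid oxidation and lipid droplet genes the median was -0.15, and 0.18 without control 3. The median was -0.06 over 38 heat shock and chaperone genes (0.12 without control 3), 0.01 over 25 genes of mitochondrial dynamics, 0.08 over 49 genes of maternal mRNA translation and decay (-0.04 without stress 3), and 0.14 over 29 cohesin and condensin genes (-0.04 without stress 3).

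Transcript length and fold change were related in these libraries. The 9250 genes of at least 1 CPM with a known transcript length were split into 5 equal groups. In the shortest (216 to 1888 bases) 64.1% were lower and the median was -0.11, and in the longest (5390 bases and more) 37.6% were lower and the median was 0.09. Without control 3 the medians were -0.00 and 0.07, and without control 3 and stress 3 they were -0.04 and 0.06. Of the oxidative phosphorylation subunits with a length, 84.1% fell in the shortest group, and of the ribosomal proteins 88.5%.

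**Figure D5:**
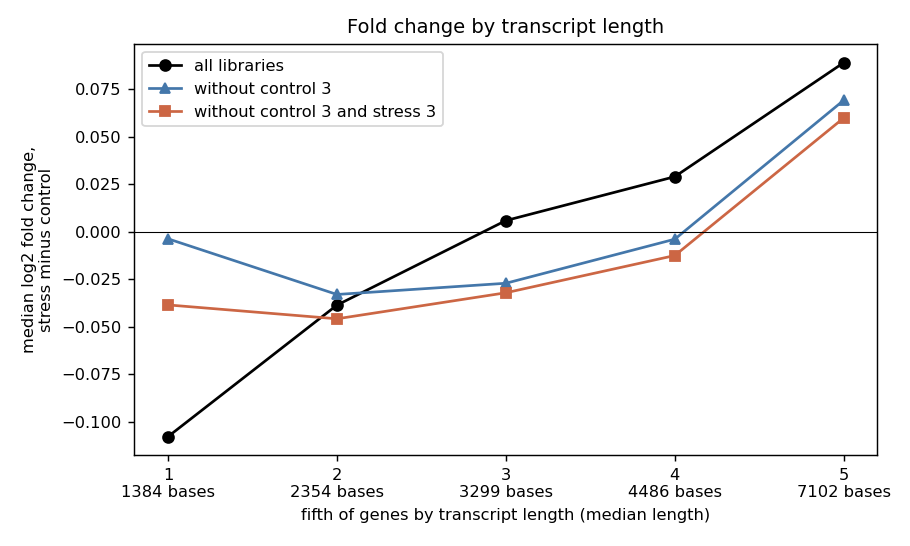
Median log2 fold change, stress minus control, in 5 equal groups of genes ordered by transcript length (median length under each), with all libraries (circles), without control 3 (triangles) and without control 3 and stress 3 (squares). With all libraries the median goes from -0.11 in the shortest group to 0.09 in the longest.

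Library totals ran from 68826061 to 106990821 counts over the 6 libraries, with 13257 to 15802 genes above 0 and 5.26% to 11.8% of counts in the ribosomal RNA gene Rn45s. Control libraries varied more than stress libraries in 58.0% of genes, with a median SD of log2(CPM + 1) of 0.279 against 0.225.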

How the data were processed

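The authors deposited 1 table of expected counts per library, estimated whole-number counts per gene, not normalized. The unit was read from the values. Per the submitters' processing notes, the tools were HISAT2, StringTie, DESeq2, Trim Galore and bcl2fastq 2.20, with GRCm38 and mm10 as builds and no roles stated. Libraries were made with SMART-Seq v4 and Tn5, per the labels' protocols, without molecular identifiers or strand. A read pair was taken from the values to be worth about 4 counts, which the labels do not state. The floor for a gene at 0 was therefore set at 3 read pairs (12 counts) per library, which covers counting error only.

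From these counts, edgeR 4.0.16 (R 4.3.3; TMM scaling, filterByExpr at 10 counts and 15 in total, robust quasi-likelihood F test, Benjamini-Hochberg threshold 0.05) was fitted to all 9 libraries with 1 mean per group. Groups came from the treatment labels, and each library was 1 mouse. The p-values measure the spread between these libraries. Members and the 27 gene lists were chosen with earlier results of these data known. Named genes were, per direction, the 15 of smallest p without overlap at a mean of at least 1 CPM, the 10 at 100 CPM or more, genes called by another tool, leading list members, genes at 0 in 1 group and a few set genes. Same-numbered control and stress libraries deviated together from their group means across 13890 genes (r = 0.165, 0.376 and 0.345), so a paired fit was also made, although the labels do not say what the numbers share. Alternatives were RLE scaling, 2 other filters, DESeq2 1.42.0, voom of limma 3.58.1, counts divided by 4, the 6 libraries alone, the pairing, and leaving out libraries. The scripts were tested on simulated data. Promoter sequences and coordinates came from RefSeq on GRCm38.p6, where 24076 of 24736 symbols matched.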

Additional observations from a re-analysis of the deposited data

How the results depend on the processing

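The number of genes called in stress against control was 0 with RLE scaling, without a filter, with a stricter filter, with the 6 libraries alone and with counts divided by 4. It was 22 with DESeq2 and 2 with voom (Plekhb1 and Mmp24). With the replicate block, which pairs libraries of the same number, 1 gene was called (Mettl7a1), and the pairing changed no other call. Leaving out 1 library gave 0 to 2 calls, the 2 (Kcng2 and Vwa5a) without control 3. Without the 4 libraries of most cumulus marker RNA 148 genes were called, and without control 3 and stress 3, a setting chosen after seeing the data, 18 were. The first setting kept 2 control, 2 stress and 1 KYZY library, and the second kept 2 control and 2 stress libraries beside all of KYZY. These calls therefore rest on a spread estimated from few libraries. The cause of the larger counts was not tested. The count of genes without overlap between stress and control, 1095, was 1116 to 2901 with 1 library left out, 5241 without the 4 libraries and 5151 without control 3 and stress 3; fewer libraries leave fewer ways to overlap.

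Small fold changes reversed. Ccnb1 went to -0.10 with voom, -0.06 without control 2, -0.17 without stress 3, -0.11 without the 4 libraries and -0.12 without control 3 and stress 3. With 1 library left out it ranged from -0.17 to 0.25. The log2 fold change of Gdf9 went to -0.0095 with voom, -0.015 without control 2, -0.049 without the 4 libraries and -0.061 without control 3 and stress 3, and was 0.30 at most with 1 library left out. Zp3, at -0.15, went to 0.21 without control 1 and 0.03 without stress 2, in a range down to -0.38 with 1 library left out. Nr3c1 went to -0.10 without stress 1 and -0.01 without stress 2, and to 0.31 without stress 3. Of 26 lists with a median, 10 changed sign without control 3 and 23 in at least 1 setting. Below 1 CPM the depth limits the comparison: 3 of 4303 intervals lay within a 2-fold change.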
